A study of Mus musculus with 4 samples.

Results

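The genes described are the mouse aquaporins Aqp1, Aqp3, Aqp4, Aqp5, Aqp7, Aqp8, Aqp9 and Aqp11, together with glycerol kinase, Gk. They are 9 of the 22327 genes that could be named on the array, and they were chosen by name as the channels for water and glycerol and the enzyme that takes up the glycerol. Of the 9, 8 carry their current symbol in the deposited files. Gk is printed there under its older name Gyk and was matched through its transcript accession. The 9 genes have 13 probes, with 2 probes each for Aqp4, Aqp5, Aqp8 and Aqp11 and 1 probe for each of the others.

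The study profiled transcripts of 2 tissues, liver and white adipose tissue (WAT), in mice lacking Pnpla7 (genotype Pnpla7-/-) and in wild-type mice. Pnpla7 encodes a lysophospholipase, an enzyme that cleaves phospholipids that have kept a single fatty acid. All animals were C57BL/6N mice aged 4 weeks, and no drug or diet is named for any group. Each of the 4 groups is 1 one-colour Agilent array, labelled with Cy3 from 200 ng of total RNA that had been pooled from 5 animals. There is therefore no replicate and no test, and the spread between animals cannot be seen. The extraction protocol speaks of livers for every sample, fat included, and the fat depot, the sex of the animals and the disrupted part of Pnpla7 are not given in the sources used here.

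Aquaporins are membrane channels that let water cross cells along an osmotic gradient, and the aquaglyceroporins among them, Aqp3, Aqp7 and Aqp9, also pass glycerol. Fat cells that break down triglyceride release glycerol through Aqp7, and hepatocytes take it up through Aqp9. Glycerol kinase then phosphorylates glycerol to glycerol 3-phosphate, which feeds glucose or triglyceride synthesis; white fat is known for little of this kinase, while liver and brown fat have more.

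The arrays read each gene through a short DNA probe, and the 5 probes below are those of Gk and Aqp9 and 1 of the pair for each of Aqp8, Aqp11 and Aqp5, shown as the sequences by which these genes were read. The Aqp8 probe shown was above background in liver only, and the WAT values of Aqp8 rest on its other probe. Each is 60 bases long and is printed 5′ to 3′ in the sense of the transcript as the files give it. At least 1 reading frame of each has no stop codon. On the mm9 build the Gk probe lies at chrX:82956390-82956449 (minus strand, from base 1820 of the transcript), and the Aqp8 probe at chr7:130606210-130606269 (plus strand, base 290). The Aqp9 probe lies at chr9:70978252-70978311 (minus strand, base 617), the Aqp11 probe at chr7:104877482-104877541 (minus strand, base 935) and the Aqp5 probe at chr15:99424655-99424714 (plus strand, base 945).
Gk: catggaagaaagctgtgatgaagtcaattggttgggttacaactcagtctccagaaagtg
Aqp8: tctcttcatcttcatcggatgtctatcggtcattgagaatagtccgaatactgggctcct
Aqp9: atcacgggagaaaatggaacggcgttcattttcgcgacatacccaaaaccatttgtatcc
Aqp11: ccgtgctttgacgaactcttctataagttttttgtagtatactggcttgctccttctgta
Aqp5: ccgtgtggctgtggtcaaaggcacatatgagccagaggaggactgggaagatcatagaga

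The remaining probes, with no sequence printed, lie at chr6:55298480-55298539 (Aqp1, plus strand, base 2690), chr4:41039962-41040021 (Aqp3, minus strand, base 1498) and chr4:40980431-40980490 (Aqp7, minus strand, base 2140). The further probes of Aqp5, Aqp8 and Aqp11 start at bases 1428, 1421 and 1262 of their transcripts, and the pair for Aqp4 at bases 1561 and 4974.

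A level is given as the probe's signal divided by the 75th percentile of its array, or as the log2 of that ratio. It places 1 probe on 4 arrays and cannot rank different genes. A difference is a difference of log2 levels, averaged over the probes of a gene that were well above background on both arrays, and its error is that of the scanner software's error model. That error describes the array and not the animals. A gene was counted as different at 2-fold or more. Where a gene was well above background on 1 array of a pair alone, its fold is given as a lower bound against the dim array's detection floor. That floor is the lowest signal there still called well above background. Where the probe's own signal on the dim array was higher than the floor, that signal was used, and the fold is then a plain ratio. A bound is averaged over the gene's probes that were well above background on the bright array.

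The 4 arrays were alike in quality: between 65.5% and 72.6% of spots were well above background, 0 were saturated, and the 75th percentile stood 24.3 to 30.1 times above the negative controls. The median error of a difference was 0.20 in each tissue, and for genes with several probes the pooled SD between probes was 0.20 (liver) and 0.23 (WAT). All 10 hepatocyte markers were at least 2-fold lower in wild-type WAT than in wild-type liver (median log2 difference -6.58), and all 7 adipocyte markers that could be compared were higher there (median 6.05). Adipoq, Lep and Cfd were not well above background in either liver pool, so the markers followed the tissue labels. Signal of the Pnpla7 probe (chr2:24908961-24909192, base 4129) was 9.04 times the 75th percentile in wild-type liver, 7.98 in labelled-knockout liver, 0.739 in wild-type WAT and 0.372 in labelled-knockout WAT. Its level thus differed by -0.18 in liver and -0.99 in WAT. Since it is not known whether this probe lies in the disrupted part, it does not settle the liver label, and the arrays are called labelled knockout throughout.

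Most members were clearly liver genes or fat genes, and more of them reached 2-fold between the genotypes in WAT than in liver. In liver, 1 of the 7 members that could be measured on both arrays was at least 2-fold different, Aqp8, which was lower in the labelled knockout, against 2.64% of all 15568 genes measured (1.75% were higher and 0.886% lower). In WAT, 4 of 7 were at least 2-fold different, against 4.18% of 16131 genes: Gk, Aqp11 and Aqp3 were higher in the labelled knockout (2.16% of all genes were) and Aqp8 was lower (2.01% were). The median difference of the measured members was -0.20 in liver, where the median of all genes was -0.03, and 0.32 in WAT, where it was 0.02. Members well above background on both arrays of a pair are the only ones in these counts: Aqp3 in liver and Aqp5 in WAT gave only a bound, and Aqp5 in liver and Aqp9 in WAT were seen on neither array.

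**Figure D1:**
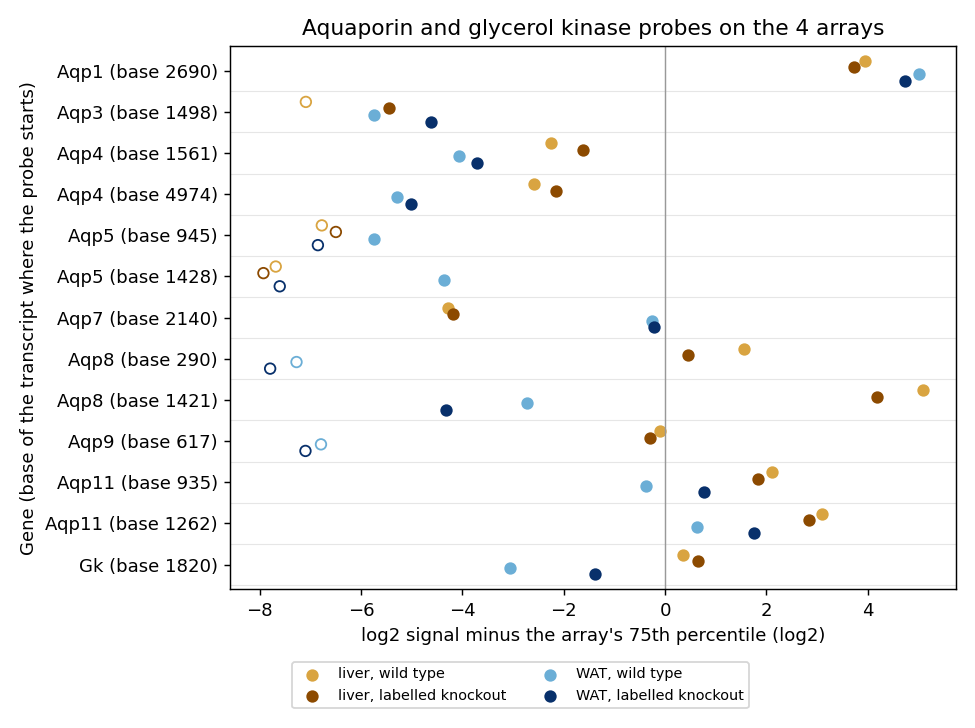
Level of each of the 13 probes on the 4 arrays, as the log2 signal minus the array's 75th percentile. Each point is 1 array of RNA pooled from 5 animals; open circles are values not well above background. The Aqp7 probe stands 4.02 higher in wild-type WAT than in wild-type liver, the Aqp8, Aqp9 and Gk probes stand higher in liver, and positions of different genes cannot be compared.

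Aqp7, the glycerol channel of fat cells, was a fat gene at the same level in both genotypes. Its signal was 0.835 and 0.854 times the 75th percentile in wild-type and labelled-knockout WAT, and 0.0514 and 0.055 times it in the corresponding livers. Both WAT pools were thus above both liver pools. WAT exceeded liver by 4.02 ± 0.24 on the log2 scale (16.2-fold) in the wild-type pair and by 3.96 ± 0.23 (15.5-fold) in the labelled-knockout pair, where ± is the model error. The wild-type value was as low as 2.496 under another background correction (normexp with offset 50). Between genotypes, the probe differed by 0.03 ± 0.20 in WAT and by 0.10 ± 0.26 in liver, both within the model error; under the normexp corrections the liver difference turned to -0.66 and -0.85. Liver levels of Aqp7 were -4.28 in wild type and -4.18 in labelled knockout, where the floors were -5.85 and -6.06. Its genotype difference there had no settled sign, and the cause of the change of sign was not tested.

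Aqp9, through which hepatocytes take up glycerol, was a liver gene. Its signal was 0.933 times the 75th percentile in wild-type liver and 0.812 in labelled-knockout liver, while both WAT pools were not well above background (0.00903 and 0.0073). Liver exceeded WAT by at least 73.9-fold in the wild-type pair and by at least 44.4-fold in the labelled-knockout pair. On the log2 scale these bounds are -6.21 and -5.47, and they shrank to -4.26 and -3.83 under normexp with offset 50. Among genes well above background in 1 tissue alone, a bound of 2-fold or more was reached by 50.2% in the wild-type pair and by 58.2% in the labelled-knockout pair. The livers differed by -0.20 ± 0.20, no more than the model error.

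Gk, the enzyme that phosphorylates glycerol, was highest in liver and was higher in labelled-knockout WAT than in wild-type WAT. Its signal was 1.29 times the 75th percentile in wild-type liver, 1.58 in labelled-knockout liver, 0.12 in wild-type WAT and 0.382 in labelled-knockout WAT. Both livers were thus above both WAT pools, and wild-type WAT was the lowest array. The WAT pools differed by 1.67 ± 0.21 (3.17-fold), a value that lay between 1.37 and 1.75 under every setting tried and above 99.2% of all genes measured in WAT. The livers differed by 0.30 ± 0.20. WAT was below liver by a log2 difference of -3.42 ± 0.21 (10.7-fold) in the wild-type pair and of -2.04 ± 0.20 (4.13-fold) in the labelled-knockout pair. The genotype difference was therefore larger in WAT than in liver by 1.37 (2.59-fold). At least 2-fold separated the effects of both tissues in 8.14% of the 14896 genes with a genotype difference in each tissue, and with 1 array per group the separation was not tested.

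Levels of genes that mark heat-producing (thermogenic) fat moved together with Gk in WAT. Of 10 thermogenic markers, 9 were at least 2-fold higher in the labelled-knockout WAT, 0 were lower, the median difference was 1.60, and their summed signal went from 63.8 to 224 times the 75th percentile. Elovl3, a fatty acid elongase induced by cold, differed by 5.05, and Ucp1, the uncoupling protein, by 3.04. Dio2, which activates thyroid hormone, differed by 2.98, and Otop1, a proton channel, by 2.0. Ucp1 and Dio2 were not well above background in either liver pool, while Gk was high there. Markers of skeletal muscle moved the same way: 11 of 15 were at least 2-fold higher, 0 were lower, the median was 3.19 and the summed signal went from 11.6 to 60.4, led by Pvalb (4.79), Ttn (4.76), Myh4 (4.73) and Ckm (4.66). None of these 15 muscle markers fell below the background threshold in WAT. The part of either cell type in the Gk difference was not tested. In pooled tissue RNA such as this, a change in the number of cells of a type and a change of RNA per cell cannot be told apart.

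Aqp3, an aquaglyceroporin of epithelial surfaces, was dim everywhere and was not well above background in wild-type liver (0.00734 times the 75th percentile). Its signal was 0.0229 in labelled-knockout liver, 0.0186 in wild-type WAT and 0.0408 in labelled-knockout WAT, which was the highest of the 4. The WAT pools differed by 1.13 ± 0.39 (2.19-fold), but by 0.59 and 0.997 under normexp with offsets 50 and 0, both of which end the call. In the labelled-knockout pair, WAT exceeded liver by 0.84 ± 0.37. Labelled-knockout liver exceeded wild-type liver by at least 1.32-fold and wild-type WAT exceeded wild-type liver by at least 1.07-fold; neither bound remained under the normexp corrections, nor the latter under quantile normalization. Both bounds lie under 2-fold, so a 2-fold difference from wild-type liver could not be shown at this signal.

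Glandular epithelium, where Aqp3 and Aqp5 are usually found, was represented in WAT by 17 listed markers. Between the genotypes, 11 could be compared, of which 3 were at least 2-fold higher in the labelled knockout, 0 were lower, and the median was 0.52. Those higher were Wfdc2, a secreted protease inhibitor homologue of epithelia (6.87), the tight junction protein Cldn3 (4.58) and the keratin Krt18 (2.17). The summed signal went from 2.79 to 9.0 times the 75th percentile. Of the markers well above background on 1 WAT array alone, Cdh1 and Epcam, adhesion proteins of epithelial cells, were higher in the labelled knockout by at least 6.81-fold and at least 2.91-fold. Csn3 went the other way: it was well above background in wild-type WAT alone, with a fold of 1.41. The milk protein genes Csn2 and Wap and the mammary factor Elf5 were not well above background in either WAT pool. The part of epithelium in the Aqp3 difference was not tested.

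**Figure D2:**
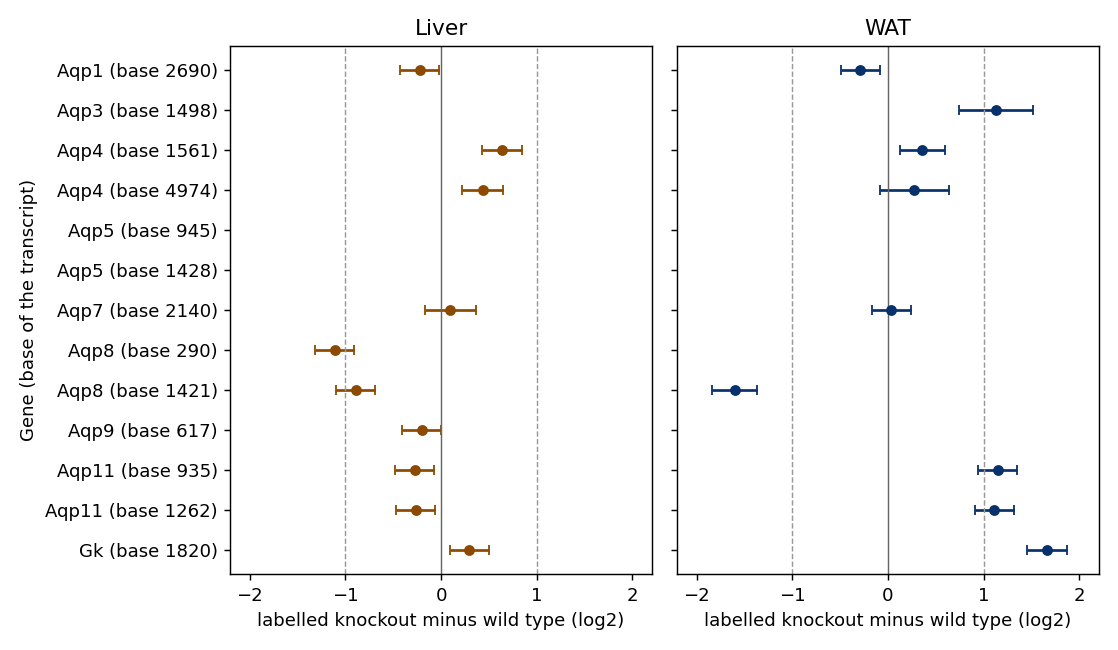
Log2 difference between labelled knockout and wild type for each probe in liver (left) and WAT (right); bars are the scanner software's model error and dashed lines mark 2-fold. Probes not well above background on both arrays have no point. Gk, both Aqp11 probes and Aqp3 lie above 1 in WAT, Aqp8 lies at -1.60 there, and in liver the Aqp8 probes lie at -1.11 and -0.89.

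Aqp8, a water channel of hepatocytes, was the member that reached 2-fold downward in the labelled knockout in both tissues. The probe at base 1421 read 33.8 times the 75th percentile in wild-type liver, 18.2 in labelled-knockout liver, 0.151 in wild-type WAT and 0.05 in labelled-knockout WAT. The probe at base 290 read 2.95 and 1.36 in the livers and was not well above background in WAT (0.00646 and 0.0045). On both probes the livers thus stood above WAT, and in liver the wild type stood above the labelled knockout. In WAT only the probe at base 1421 gave a genotype order. The WAT gap of the probe at base 290 was 0.52 with a model error of 1.62. The livers differed by -1.002 ± 0.14 (2.0-fold, with -1.11 and -0.89 by probe), which is on the threshold. The difference lay between -1.002 and -0.87 and reached 2-fold in 3 of the 8 settings. Those 3 were the main one, the authors' table and no filter on dim probes, which use the same liver signal of both probes. Every other setting fell short of 2-fold. Of all genes measured in liver, 0.88% had a lower value.

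In WAT, Aqp8 differed by -1.60 ± 0.24 (3.03-fold) on the 1 probe that could be compared, and by -0.98 under normexp with offset 50, just short of 2-fold. With no filter on dim probes, which brings in the second probe, it was -1.06. Liver exceeded WAT by 223-fold in the wild-type pair and by 365-fold in the labelled-knockout pair, where the log2 differences were -7.80 ± 0.21 and -8.51 ± 0.23; under normexp with offset 50 they were -7.38 and -7.57. Hepatocyte markers moved the same way in WAT: 6 of 10 reached 2-fold downward, 0 upward, and the median was -1.09. Among them were Ttr (-1.62), Alb (-1.58), Apob (-1.39) and Fgb (-1.28), which encode plasma proteins made by hepatocytes. Their summed signal nevertheless went from 173 to 233 times the 75th percentile, since Cyp2e1 (0.97) and Trf (0.28), which the WAT pools also carried at high signal, were higher. All 10 hepatocyte markers were well above background in both WAT pools, and the part of hepatocyte RNA in the Aqp8 difference there was not tested. In liver the same markers had a median difference of -0.26, with 0 of 10 past 2-fold and a summed signal of 1870 and 1570.

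Aqp11, a channel of the endoplasmic reticulum found in liver, kidney and fat, was lower in WAT than in liver and higher in labelled-knockout than in wild-type WAT. The probe at base 935 read 4.34 times the 75th percentile in wild-type liver, 3.59 in labelled-knockout liver, 0.767 in wild-type WAT and 1.7 in labelled-knockout WAT. The probe at base 1262 read 8.56, 7.14, 1.56 and 3.37 in the same order. Both probes thus ordered the arrays alike, with wild-type WAT lowest. The WAT pools differed by 1.13 ± 0.14 (2.19-fold; 1.15 and 1.11 by probe), between 1.08 and 1.17 over all settings, and above 98.3% of all genes measured in WAT. The livers differed by -0.27 ± 0.14 (-0.28 and -0.26 by probe). The genotype difference was thus opposite in sign in the tissues and 1.40 apart (2.64-fold), a separation that was not tested. WAT was below liver by a log2 difference of -2.48 ± 0.14 (5.58-fold) in the wild-type pair and of -1.08 ± 0.14 (2.11-fold) in the labelled-knockout pair, the latter just short of 2-fold (-0.99) under quantile normalization. The thermogenic, muscle and epithelial marker differences given above moved with Aqp11 in WAT, and their part in it was not tested. Adipocyte markers differed little between these pools, with 0 of 10 at least 2-fold higher, 1 lower (the hormone gene Lep, -1.99), a median of 0.19 and a summed signal of 796 and 903.

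Aqp1, the water channel of endothelium and red cells, was well above background on all 4 arrays and higher in WAT. Its signal was 15.4 times the 75th percentile in wild-type liver, 13.2 in labelled-knockout liver, 32.4 in wild-type WAT and 26.5 in labelled-knockout WAT. Both WAT pools were above both liver pools, by 1.08 ± 0.20 (2.11-fold) for wild type and 1.01 ± 0.20 (2.02-fold) for labelled knockout, and the wild-type value was 1.65 under quantile normalization. Between genotypes the differences were -0.22 ± 0.20 in liver and -0.29 ± 0.20 in WAT, both under 1.5 times the model error. Endothelial markers were lower in the labelled-knockout WAT in 10 of 10 cases but 0 reached 2-fold, with a median of -0.44 and a summed signal of 40.8 and 31.9. In wild-type WAT, 8 of 10 were at least 2-fold above liver, with a median of 2.07. Erythroid markers had medians of -0.37 in WAT (4 measured, 0 past 2-fold, summed signal 65.3 and 54.3) and -0.78 in liver (5 measured, 27.8 and 16.3), where Klf1, an erythroid transcription factor, was lower (-1.04). Ank1 and Epb42, seen in labelled-knockout WAT alone of that pair, were higher there by at least 2.58-fold and at least 1.97-fold. Klf1 was seen in wild-type WAT alone of that pair and gave no bound. The part of either cell type in the Aqp1 values was not tested.

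Aqp4, known as the water channel of astrocytes and muscle fibres, was more abundant in liver than in WAT. The probe at base 1561 read 0.209 times the 75th percentile in wild-type liver, 0.326 in labelled-knockout liver, 0.0593 in wild-type WAT and 0.0761 in labelled-knockout WAT. The probe at base 4974 read 0.167, 0.226, 0.0256 and 0.031. Both probes had labelled-knockout liver highest and wild-type WAT lowest. WAT was below liver by a log2 difference of -2.26 ± 0.18 (4.80-fold) for wild type and of -2.48 ± 0.19 (5.59-fold) for labelled knockout; the probes gave -1.82 and -2.71 in the wild-type pair. The values were -1.69 and -1.61 under normexp with offset 50. The livers differed by 0.54 ± 0.15 (0.64 and 0.43 by probe), above the model error but under 2-fold and 0.18 under normexp with offset 50. The WAT pools differed by 0.32 ± 0.21 (0.36 and 0.28 by probe, the latter with a model error of 0.36). The muscle markers there differed by a median of 3.19, and their part in the Aqp4 values was not tested. Gfap, which marks astrocytes, was not well above background on any array.

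Aqp5, the water channel of glands, was well above background on 1 array alone, that of wild-type WAT. There its probes at bases 945 and 1428 read 0.0188 and 0.0487 times the 75th percentile, against 0.00866 and 0.00514 in labelled-knockout WAT, 0.00913 and 0.00486 in wild-type liver and 0.0111 and 0.00411 in labelled-knockout liver. Wild-type WAT exceeded labelled-knockout WAT by at least 1.65-fold and wild-type liver by at least 1.74-fold. Both bounds are means over the 2 probes and are under 2-fold, and the bound against liver vanished under the normexp corrections. The probes were unlike. In wild-type WAT their log2 levels were -5.74 (base 945) and -4.36 (base 1428), where the floors were -5.77 in labelled-knockout WAT and -5.85 in wild-type liver. The probe at base 1428 alone was thus more than 2-fold above both floors, and the probe at base 945 was close to them. Most epithelial markers went the other way: 10 of the 11 measured were higher in labelled-knockout WAT, 3 of them at least 2-fold, with a median of 0.52. Of those well above background on 1 WAT array alone, Cdh1 and Epcam were higher in the labelled knockout. Csn3 went the same way as Aqp5, seen in wild-type WAT alone of that pair with a fold of 1.41. The part of epithelium in the Aqp5 values was not tested.

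More members differed between the tissues than between the genotypes. In the wild-type pair, 6 of 9 members could be measured on both arrays and all 6 were at least 2-fold different between the tissues, against 33.7% of 15305 genes. Aqp7 and Aqp1 were higher in WAT, as were 18.1% of genes, and Aqp8, Gk, Aqp11 and Aqp4 were higher in liver, as were 15.6%. In the labelled-knockout pair, which shares no array with the wild-type pair, 6 of 7 measured members were at least 2-fold different, against 31.4% of 15338 genes, with the same members on each side (17.7% of genes were higher in WAT and 13.7% in liver). Aqp3 was the member within 2-fold. The median over the measured members was -2.37 in the wild-type pair and -1.08 in the labelled-knockout pair, beside 0.04 and 0.14 for all genes; Aqp3 entered the latter alone.

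Beyond these members, the array carries Mip (Aqp0, the lens channel), Aqp2, Aqp6 and Aqp12. Mip and Aqp6 were not well above background on any array. Aqp2, the vasopressin-regulated channel of the kidney, read 0.212, 0.191, 0.154 and 0.162 times the 75th percentile (wild type then labelled knockout, liver before WAT). Its genotype differences were -0.15 ± 0.21 and 0.07 ± 0.21 in liver and WAT. Aqp12, a channel of pancreatic acinar cells, was well above background only in labelled-knockout WAT (0.0439). It stood there 3.08-fold above its own signal in wild-type WAT (0.0142). That signal was not well above background but lay above the floor, so the fold is a plain ratio and not a lower bound. Among genes well above background on 1 array of that pair alone, 17.2% reached 2-fold or more by the same measure.

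Relatives of glycerol kinase were also on the array. Gk2 and Gykl1, testis forms of the kinase, were not well above background on any array. Gk5, a further member of the kinase family that was added after its values had been seen, was well above background in WAT alone. Its probes read 0.0906 and 0.0324 times the 75th percentile in wild-type WAT and 0.101 and 0.0371 in labelled-knockout WAT. The WAT pools differed by 0.18 ± 0.19, within the model error, and wild-type WAT exceeded liver by at least 3.12-fold.

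The wider list of genes for glycerol release and use held 19 genes, of which 17, Gk included, were measured on all 4 arrays. In WAT, 13 of the 17 were higher in the labelled knockout and the median was 0.42, beside 0.02 for all genes; 2 reached 2-fold upward and 1 downward, in a tissue where 4.18% of genes reached 2-fold. Besides Gk, the gene higher was Gpd2 (1.22), the mitochondrial glycerol 3-phosphate dehydrogenase, which passes electrons from the product of glycerol kinase to the respiratory chain. Gpd2 signal was 1.82, 1.70, 3.06 and 7.15 times the 75th percentile (wild type then labelled knockout, liver before WAT), so that labelled-knockout WAT was the highest of the arrays. The gene lower was Fbp1 (-1.29), an enzyme of gluconeogenesis. Its signal was highest in liver, at 182 and 142 times the 75th percentile in wild type and labelled knockout. It was 0.954 and 0.389 in wild-type and labelled-knockout WAT. The hepatocyte markers were lower in the same WAT pool by a median of -1.09, with 2 of 10 higher. Their part in the Fbp1 difference was not tested.

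Enzymes that free glycerol from triglyceride stayed within 2-fold in WAT. Lipe, the hormone-sensitive lipase, differed by 0.55, Pnpla2, the first lipase of the pathway, by 0.42, and Abhd5, its coactivator, by 0.64. Mgll, which cleaves the last fatty acid from glycerol, differed by -0.31. Other enzymes around glycerol 3-phosphate were within 2-fold too: Gpd1, which makes it from glucose carbon, differed by 0.37, Pck1, which feeds its synthesis from smaller molecules, by 0.48, and Gpam, the first acyltransferase, by 0.65. In liver, 4 of the 17 were higher and the median was -0.10, beside -0.03 for all genes. Lpl, the lipase of blood-borne triglyceride, was the gene past 2-fold there (1.02), with 3.66 and 7.43 times the 75th percentile in wild-type and labelled-knockout liver. Lpin1, a phosphatidate phosphatase, differed by -0.85 in liver and by 0.48 in WAT.

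**Figure D3:**
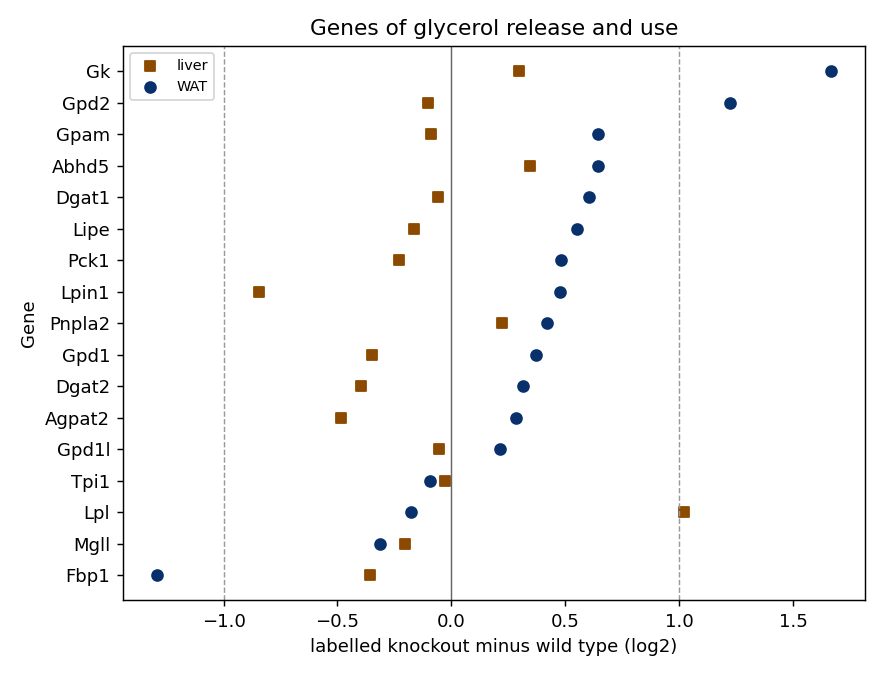
Log2 difference between labelled knockout and wild type in liver (squares) and WAT (circles) for the 17 measured genes of glycerol release and use, ordered by the WAT value; each point is the difference of 2 arrays and dashed lines mark 2-fold. Gk (1.67) and Gpd2 (1.22) lie highest and Fbp1 (-1.29) lowest in WAT.

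The marker lists that could accompany these genes are shown side by side in the plot by cell type. Besides those described with each gene, macrophage markers were lower in labelled-knockout WAT, with 2 of 8 past 2-fold, a median of -0.94 and a summed signal of 15.4 and 9.31, against 17.0 and 17.2 in liver. Biliary markers had a median of 0.25 in WAT (4 measured, summed signal 1.71 and 2.05) and of -0.20 in liver (5 measured, 1.29 and 1.15). Neuron and glia markers had a median of 0.12 in WAT (6 measured, 46.8 and 51.2) and 0.01 in liver (5 measured, 147 and 97.0). Aldh1l1 alone read 36.6 and 41.7 in WAT and 145 and 94.3 in liver, so most of each sum came from it and the sums do not measure neural RNA. None of the biliary or neural markers measured on both arrays of a pair reached 2-fold between genotypes, while Epcam, well above background in labelled-knockout WAT alone of that pair, was at least 2.91-fold higher there.

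**Figure D4:**
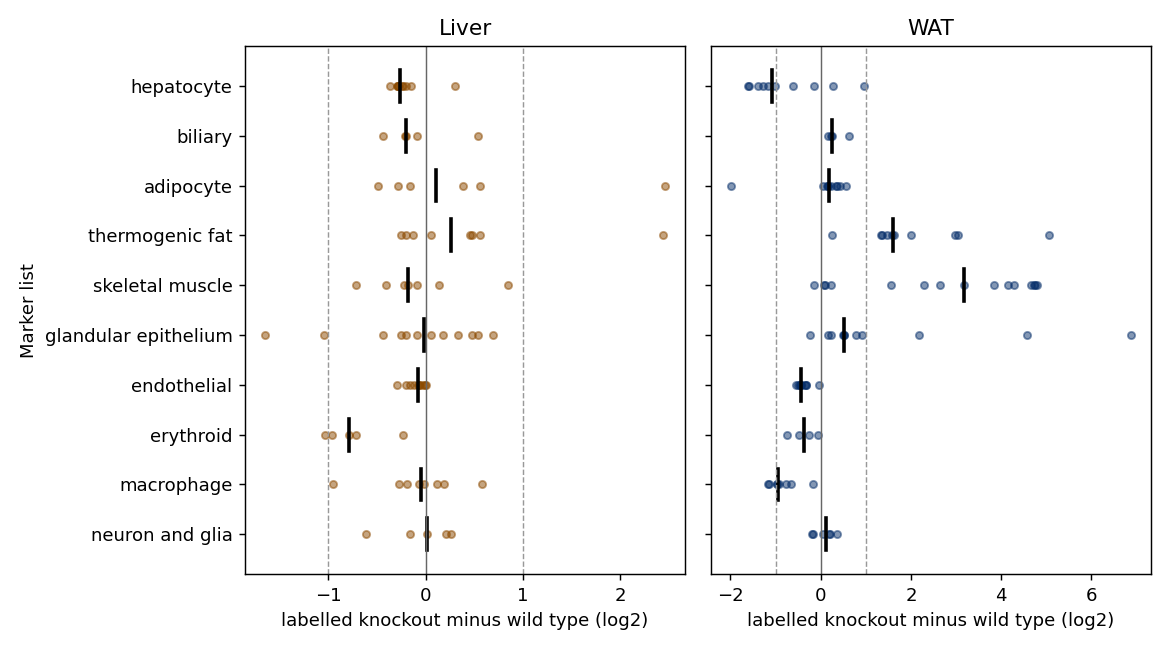
Log2 difference between labelled knockout and wild type for each measured marker gene of 10 cell type lists in liver (left) and WAT (right); black bars are list medians, dashed lines mark 2-fold, and the panels have different horizontal scales. In WAT the thermogenic and muscle lists have medians of 1.60 and 3.19 and the hepatocyte list has a median of -1.09.

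For the members well above background on all 4 arrays, the genes nearest in pattern were found by the distance between centred log2 levels over the 4 arrays, among 14882 genes. A distance of 0 would be the same pattern, and 4 arrays leave room for many genes to lie close. Aqp1 was nearest to Fam214b (0.05), Sh2d3c (0.06) and Tek (0.06), the last an endothelial receptor. Aqp8 was nearest to Cyp2a4 (0.21), Apol7a (0.22) and Cyp2d40 (0.33). Cyp2a4 and Cyp2d40 are cytochrome P450 genes. Aqp7 was nearest to Crispld2 (0.15), Srpx (0.15) and Pfkfb3 (0.16), Aqp4 to Tuft1 (0.08), Ank3 (0.17) and Gm10030 (0.17), and Aqp11 to Atp2b2 (0.23), Rbfox3 (0.23) and Upk1a (0.23). The nearest to Gk lay farther off: Bex4 (0.34), Prok1 (0.36) and Lgr5 (0.39).

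Promoters of the members were read from RefSeq (GRCm38.p6), which gave 10 windows for the members, and the 250 bases before each start were searched on both strands. The motif AGGTCA, the core bound by many nuclear receptors, stood in 14.0% of all 32851 promoters and in those of Aqp7 and Aqp11. The GC box core GGGCGG stood in 32.7% of promoters and in those of Aqp1, Aqp3, Aqp5 and Gk. TATAAA stood in 12.4% and in that of Aqp3, and CCAAT in 33.8% and in 0 of the member windows. The windows of Gk (chrX:85776820-85777069) and Aqp11 (chr7:97738248-97738497), both on the minus strand, are printed because these genes were at least 2-fold higher in labelled-knockout WAT under every setting tried. The pair of Aqp7 sites (chr4:41048046-41048075 and chr4:41048168-41048197, minus strand) stands for the fat channel. Capitals mark the motif as read on the gene's strand, where CCGCCC is the reverse complement of GGGCGG and TGACCT that of AGGTCA; a match is a run of letters and not a measured site.
Gk promoter: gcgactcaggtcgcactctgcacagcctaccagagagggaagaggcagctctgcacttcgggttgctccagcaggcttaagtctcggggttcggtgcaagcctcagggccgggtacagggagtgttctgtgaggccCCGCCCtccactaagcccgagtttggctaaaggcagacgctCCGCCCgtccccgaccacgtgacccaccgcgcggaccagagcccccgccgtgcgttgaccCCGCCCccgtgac
Aqp11 promoter: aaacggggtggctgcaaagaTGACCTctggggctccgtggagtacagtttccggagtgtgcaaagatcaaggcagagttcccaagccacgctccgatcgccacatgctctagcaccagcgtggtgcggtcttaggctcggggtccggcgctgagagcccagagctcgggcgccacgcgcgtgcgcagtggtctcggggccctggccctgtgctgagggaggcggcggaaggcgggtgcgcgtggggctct
Aqp7 site 1: cccctgccctacTGACCTctcccctggaga
Aqp7 site 2: gaactccacctcTGACCTcacaagggctgc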

How the data were processed

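The members, gene lists and comparisons were chosen with earlier results of these data known. The deposited values are spot intensity from Agilent Feature Extraction 11.0.1.1, per the submitters' processing notes. Per the file headers, this intensity was corrected for background and detrended within each array but not normalized between arrays. The flags for well above background, saturation and outliers are those deposited with each spot. The authors' series table is the same intensity divided by 1 constant per array, the 75th percentile (1470 to 1764), with no centring. Its column medians were 0.0737, 0.0751, 0.0876 and 0.0875. All arrays share 1 scan time.

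Outlier and control spots were left out, spots of a probe were averaged, and log2 signal minus the array's 75th percentile was used. A probe counted as measured in a pair when, on each array, over a 0.5 share of its spots passed the well-above-background flag. A gene's difference was the mean over its measured probes, and a gene was counted at 2-fold. The error combines the deposited signal errors, whose preset multiplicative part is 0.1. For a bound, the floor was the faintest signal passing that flag on the dim array, or the probe's own signal there if higher. The annotation in the files is mm9. RefSeq names (GRCm38.p6) came by accession for 27234 probes, by symbol for 3576 and by synonym for 565, and 8054 stayed unnamed. Named were all members and other aquaporins, up to 4 genes per list with the largest differences past 2-fold, and 3 neighbours in pattern per member whose levels ranged over at least 1; the further genes named for glycerol handling and markers were chosen after their values were seen. One gene of the glycerol list is not reported here. Alternatives were normexp (limma 3.58.1, R 4.3.3) with offsets of 50 and 0, quantile normalization, the percentile over probes seen on all 4 arrays, the authors' table, the brightest probe, no filter on dim probes, and thresholds of 1.5-fold and 3-fold. The scripts ran in Python 3.11.15 and were tested on simulated data.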

Additional observations from a re-analysis of the deposited data

Results flagged for a closer look

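Aqp11 had genotype differences of opposite sign in the tissues. Labelled-knockout WAT was above wild-type WAT by 1.13 and labelled-knockout liver differed from wild-type liver by -0.27, so the effects lay 1.40 apart on the log2 scale. Both probes gave these signs. With 1 array per group the difference between the tissues was not tested.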

How the results depend on the processing

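Of 27 member differences, 17 reached 2-fold, and all 17 kept their sign in the 8 settings that give a difference, while 13 stayed past 2-fold in each of them; of 189 alternative values, 28 moved by more than the model error. The count of members at 2-fold in liver, 1, was 0 under normexp with offset 50 or 0, quantile normalization, the percentile over probes seen on all 4 arrays, the brightest probe and a 3-fold threshold, and 2 with no filter on dim probes. In WAT the count of 4 became 2 under normexp with offset 50 and under a 3-fold threshold. It was 3 under normexp with offset 0 and 5 with no filter on dim probes. The count of all genes in liver, 411, was 1580 under normexp with offset 0, 1156 with no filter, 1276 at 1.5-fold and 120 at 3-fold. In WAT 674 became 379 under normexp with offset 50, 1416 with no filter, 2220 at 1.5-fold and 208 at 3-fold. For the wild-type tissue pair 5155 became 7729 at 1.5-fold, 7315 with no filter, 4206 under normexp with offset 50 and 3265 at 3-fold. Other changes of a count, each by a factor of at most 1.5, are not listed. The share of higher genes among those called in liver was 66.4%, but 29.9% and 7.15% under normexp with offsets 50 and 0, where the median of all genes moved from -0.03 to -0.19 and -0.20, and 54.6% at 1.5-fold. In the wild-type tissue pair it was 53.8%, but 43.4% and 37.7% under normexp, where the median moved from 0.04 to -0.21 and -0.23; it moved to 0.15 under the percentile over probes seen on all 4 arrays. In WAT it was 51.8%, and 66.3% at 3-fold. The thresholds and the filter change the counts by construction; the cause of the other shifts was not tested. No paired analysis was possible because each group is 1 array. The number of arrays limits precision. Aqp3 and Aqp5 lay near the background, and Aqp5 and wild-type liver Aqp3 gave bounds alone. Liver Aqp7 was dim (0.0514 and 0.055 times the 75th percentile in wild type and labelled knockout), and its genotype difference had no settled sign. Aqp8 in labelled-knockout WAT (0.05) and the Aqp4 probe at base 4974 in WAT (0.0256 and 0.031) were dimmer still.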
